A study of Homo sapiens with 6 samples.

Results

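The 9 genes described here make, store, recover and break down catecholamines in sympathetic cells. They are TH, DDC, DBH, PNMT and GCH1 (synthesis), SLC18A1 and SLC18A2 (vesicle storage), SLC6A2 (uptake from outside the cell) and MAOA (breakdown). They were taken by symbol from a table of 25370 genes counted in 6 RNA libraries of human neuroblastoma cell lines, and all 9 had a row. They came from BE2C cells made to express LMO1 (2 libraries), BE2C cells carrying a vector control (2 libraries), unmodified Kelly cells (1 library) and unmodified parental BE2C cells (1 library). BE2C and Kelly are established neuroblastoma lines with MYCN amplification, so all groups share that lesion. LMO1 is a LIM-only protein that bridges transcription factors, and the study set it beside MYCN. The promoter that drove LMO1, and whether the modified cells were a clone or a pool, are not given in the sources used here.

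Catecholamine synthesis starts with tyrosine. TH, tyrosine hydroxylase, turns it into L-DOPA and sets the pace of the pathway, using tetrahydrobiopterin, whose own synthesis starts with GCH1. DDC then makes dopamine, DBH makes noradrenaline inside the vesicle, and PNMT makes adrenaline. SLC18A1 and SLC18A2 (VMAT1 and VMAT2) load the amines into vesicles, SLC6A2 (the noradrenaline transporter) takes noradrenaline back up and is the route by which the imaging agent MIBG enters neuroblastoma cells, and MAOA oxidizes amines in the cytoplasm.

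Proximal promoters of the genes were read from a set of RefSeq promoters (GRCh38.p14). The set used here held 5 promoters of 4 of the 9 genes, so those of the other genes, TH among them, were not read. Those of DBH and MAOA are shown because these genes rose most with LMO1, and that of SLC18A2 because it rose less with LMO1 but was much higher in Kelly. Each line is the 250 bases before the annotated start, 5′ to 3′ on the gene's strand. In DBH (chr9:133636113-133636362, plus strand) capitals mark TGACGTC, the core of a cyclic AMP response element, and ATTA, the core bound by homeodomain factors. In MAOA (chrX:43656049-43656298, plus strand) capitals mark the GC box GGGCGG or its reverse CCGCCC. In SLC18A2 (chr10:117240864-117241113, plus strand) they mark TGACGTC and the GC box.
DBH: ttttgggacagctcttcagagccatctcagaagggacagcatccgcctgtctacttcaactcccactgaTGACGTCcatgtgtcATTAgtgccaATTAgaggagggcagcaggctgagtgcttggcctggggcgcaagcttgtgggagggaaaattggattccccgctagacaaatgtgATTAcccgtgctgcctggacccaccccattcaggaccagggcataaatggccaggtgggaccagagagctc
MAOA: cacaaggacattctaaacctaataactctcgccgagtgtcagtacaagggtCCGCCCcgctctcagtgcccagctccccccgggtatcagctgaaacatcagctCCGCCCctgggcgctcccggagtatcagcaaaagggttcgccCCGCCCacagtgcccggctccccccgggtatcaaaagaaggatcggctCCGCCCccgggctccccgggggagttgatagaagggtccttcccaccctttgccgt
SLC18A2: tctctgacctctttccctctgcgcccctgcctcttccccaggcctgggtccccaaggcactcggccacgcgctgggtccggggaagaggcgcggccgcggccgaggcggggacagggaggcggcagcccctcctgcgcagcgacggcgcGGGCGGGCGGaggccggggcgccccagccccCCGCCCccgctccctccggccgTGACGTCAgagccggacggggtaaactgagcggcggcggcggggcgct

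Motifs were searched on either strand in the 250-base windows of 35116 promoters, where TGACGTC was found in 3.12%, ATTA in 47.4%, CANNTG (the E-box) in 61.8%, GATA in 45.6% and GGGCGG in 42.6%. The DBH window held 1 TGACGTC, 3 ATTA and 3 CANNTG matches, 1 of the CANNTG matches directly following the TGACGTC, and no GATA or GGGCGG. The MAOA window held 4 GGGCGG matches, 4 GATA, 1 ATTA and 1 CANNTG. In the SLC18A2 window there were 3 GGGCGG matches, 2 of them overlapping, and 2 TGACGTC matches that overlap as the palindrome TGACGTCA. The 2 annotated DDC starts (chr7:50565406-50565655 and chr7:50561072-50561321, minus strand) had 4 and 1 ATTA matches, 2 and 0 CANNTG matches, and none of the other motifs. These matches describe letters in a window. They were not tested against the expression values.

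Depth ran from 18737591 to 25070942 counts in the 4 modified BE2C libraries, and was 59512958 in Kelly and 48663459 in parental BE2C. Levels below are CPM, counts scaled to a common library size with TMM, a composition scaling, over all 6 libraries. LMO1 itself stood at 6.55 and 5.85 CPM in the LMO1 libraries and 1.05 and 0.926 CPM in the vector libraries (log2 fold change 2.65, edgeR adjusted p = 3.46e-11), with 94.1 CPM in Kelly, against 1.93 CPM in parental cells. All 13 markers of sympathetic neuroblasts that were read had at least 13.1 CPM in every library. Summed over the 10 fibroblast and endothelial markers, levels were 110 and 109 CPM with LMO1 and 102 and 109 CPM with vector, with COL1A2 and PECAM1 at 2 counts or fewer in every library. Members of that list moved in opposite directions: of the 7 tested, 3 rose and 2 fell. DCN reached 35.5 ± 2.12 CPM in LMO1 libraries, against 19.9 ± 1.45 CPM in vector libraries, LUM 19.6 ± 2.06 against 9.47 ± 0.951 CPM, and VWF 1.64 ± 0.103 against 0.502 ± 0.257 CPM. COL3A1 stood at 7.22 ± 0.749 CPM in LMO1 libraries, against 25.2 ± 0.968 CPM in vector libraries (edgeR adjusted p = 8.31e-17), and CDH5 at 0.259 ± 0.0698 against 1.35 ± 0.361 CPM (SD, n = 2 each). The 12 Schwann and melanocytic markers summed to 16.7 and 17.2 CPM with LMO1 and 22.0 and 22.0 CPM with vector, with CDH19 and TYR at 0 everywhere, and the 8 haematopoietic markers summed to at most 1.49 CPM in any library. The 8 adrenal cortex markers summed to 10.2 and 8.45 CPM with LMO1 and 6.69 and 7.41 CPM with vector. In Kelly against parental BE2C, these sums were 167 and 192 CPM for fibroblast and endothelial, 35.5 and 18.9 CPM for Schwann and melanocytic, and 2.05 and 9.80 CPM for adrenal cortex markers. The first of these sums also holds opposite differences, with DCN at 0.201 CPM in Kelly against 102 CPM in parental cells, LUM at 2.77 against 20.1 CPM, COL1A1 at 57.9 against 7.60 CPM and PDGFRB at 98.8 against 50.6 CPM. The part of these other cell type markers in the results was not tested. In bulk RNA, fewer cells of a type and less RNA per cell cannot be told apart.

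With forced LMO1, 7 of the 9 genes rose and none fell. MAOA and DBH rose most, TH followed, and GCH1, DDC, SLC18A1 and SLC18A2 rose by less than 2-fold. PNMT and SLC6A2 were not called. Over all 15480 genes tested, 15.9% were called higher and 15.1% lower, at an edgeR adjusted p below 0.05. Of the 9 genes, 3 (MAOA, DBH and TH) rose at least 2-fold, as did 4.21% of genes tested. The median log2 fold change of the 9 genes was 0.70, against 0.00 over all genes tested. In 8 of the 9, every LMO1 library lay above every vector library, as it did in 31.3% of genes tested, and in none did every LMO1 library lie below, as in 32.4% of genes tested. Nothing in the labels tells whether replicate libraries are separate cultures, so these p-values cover only the spread between libraries, which may be technical. The fit had 2 residual degrees of freedom per gene of 45.7 in total. The spread used for a gene was thus mostly borrowed from all genes tested.

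**Figure D1:**
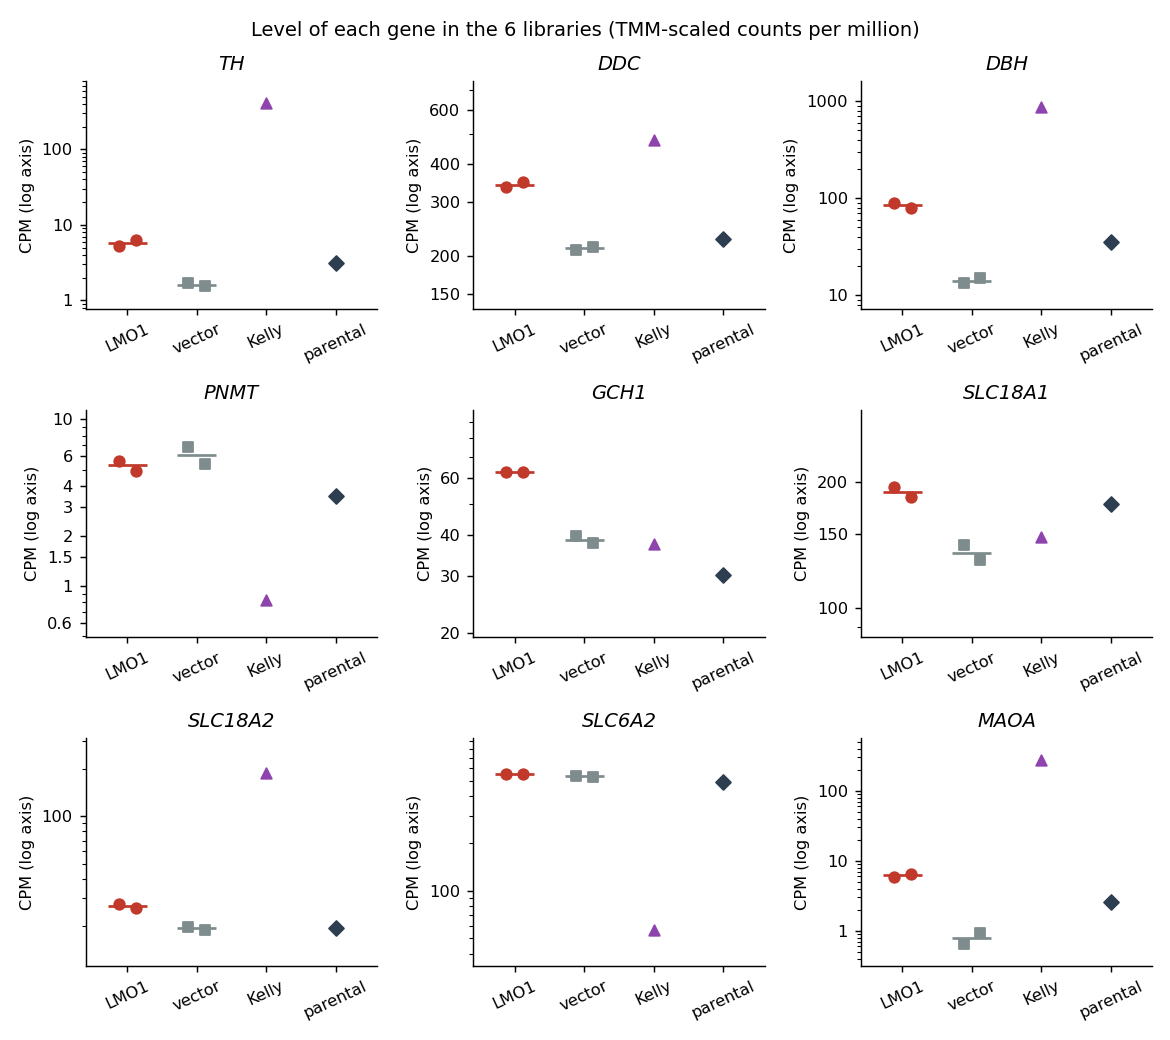
Level of each of the 9 genes in every library, in TMM-scaled CPM on log axes whose ranges differ between panels. Points are libraries and bars are the means of the 2 LMO1 and 2 vector libraries. DBH lies at 89.8 and 78.9 CPM with LMO1, against 13.4 and 15.0 CPM with vector, and Kelly is highest for TH, DDC, DBH, SLC18A2 and MAOA and lowest for PNMT and SLC6A2.

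The first enzyme, TH, was read at 5.24 and 6.21 CPM (100 and 141 counts) in the LMO1 libraries and 1.70 and 1.53 CPM (37 and 38 counts) in the vector libraries. The groups did not overlap. The rise on the log2 scale was 1.84 (SE 0.249, 95% interval 1.34 to 2.34, edgeR adjusted p = 5.67e-08), which is 3.57-fold. TH RNA was nevertheless scarce in all BE2C libraries, and per kilobase of exon it ranked 8 of the 9 genes in each of the 5.

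DDC, the next enzyme, was at 335 and 348 CPM with LMO1, against 209 and 214 CPM with vector. Both LMO1 libraries were above both vector libraries, by a log2 fold change of 0.70 (SE 0.0335, edgeR adjusted p = 2.49e-22), or 1.62-fold. It was abundant in every library, with 107 and 111 CPM per kilobase with LMO1 and 66.7 and 68.2 CPM per kilobase with vector.

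DBH gave the most precise of the large rises. Its level was 89.8 and 78.9 CPM (1715 and 1793 counts) with LMO1 and 13.4 and 15.0 CPM (292 and 372 counts) with vector. The groups were far apart, with a log2 fold change of 2.57 (SE 0.0803, 95% interval 2.41 to 2.74, edgeR adjusted p = 1.01e-29), or 5.95-fold. Only 0.536% of genes tested had a larger absolute log2 fold change. DBH-AS1, an antisense RNA whose exons share 118 bases with DBH in GENCODE, was at 4.58 ± 0.257 CPM with LMO1, against 2.68 ± 0.881 CPM with vector (SD, n = 2 each, edgeR adjusted p = 0.0107). In the parental library DBH-AS1 was at 8.12 CPM, above both groups. The strand setting of the counting was not given in the sources used here, so reads in the 118 shared bases cannot be assigned to a strand.

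PNMT, which makes adrenaline, had 5.66 and 4.93 CPM (108 and 112 counts) with LMO1 and 6.87 and 5.39 CPM (150 and 134 counts) with vector. The groups overlapped. The log2 difference was -0.21 (SE 0.19, edgeR adjusted p = 0.454), and the 95% interval of the fold, 0.665 to 1.13, did not include a rise of the size seen in DDC.

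GCH1, which starts tetrahydrobiopterin synthesis, was at 62.9 and 63.0 CPM with LMO1, against 39.7 and 37.8 CPM with vector. Replicates were close and the groups did not overlap, with a log2 fold change of 0.71 (SE 0.0669, edgeR adjusted p = 3.85e-12). Its 95% interval, 0.57 to 0.84, covered the value of DDC.

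The vesicle transporters rose by about the same factor. SLC18A1 had 195 and 184 CPM with LMO1 and 141 and 130 CPM with vector, a log2 fold change of 0.49 (SE 0.0419, edgeR adjusted p = 2.08e-13). SLC18A2 had 27.6 and 26.0 CPM with LMO1 and 19.8 and 18.8 CPM with vector, a log2 fold change of 0.48 (SE 0.0956, edgeR adjusted p = 8.32e-05). In neither gene did the groups overlap, and each rise was 1.40-fold. SLC18A2 shares 2157 exon bases with PDZD8 on the opposite strand in GENCODE, and PDZD8 differed the other way, with 88.5 ± 3.09 CPM in LMO1 libraries and 97.3 ± 3.27 CPM in vector libraries (SD, n = 2 each, log2 fold change -0.13, edgeR adjusted p = 0.0459).

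SLC6A2, the uptake transporter, was among the most abundant of the 9 genes in BE2C, at 556 and 549 CPM with LMO1, against 539 and 531 CPM with vector. The 2 groups were separate but close, with a log2 fold change of 0.05 (SE 0.0277, edgeR adjusted p = 0.146) and a 95% interval of the fold from 0.998 to 1.08. It was called higher with total-count scaling (0.08, edgeR adjusted p = 0.0237) and over genes of at least 5 CPM in 2 libraries (0.07, edgeR adjusted p = 0.0384), and over all alternatives its adjusted p ran from 0.0237 to 0.563.

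MAOA, the breakdown enzyme, rose the most of the 9, from few reads. It had 5.92 and 6.56 CPM (113 and 149 counts) with LMO1 and 0.642 and 0.926 CPM (14 and 23 counts) with vector. All LMO1 values lay above all vector values, with a log2 fold change of 2.98 (SE 0.283, edgeR adjusted p = 4.67e-12), or 7.89-fold with a 95% interval of 5.31 to 11.7. Its interval overlapped that of DBH, 5.32 to 6.66, so the order of these 2 rises is not set by the data.

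**Figure D2:**
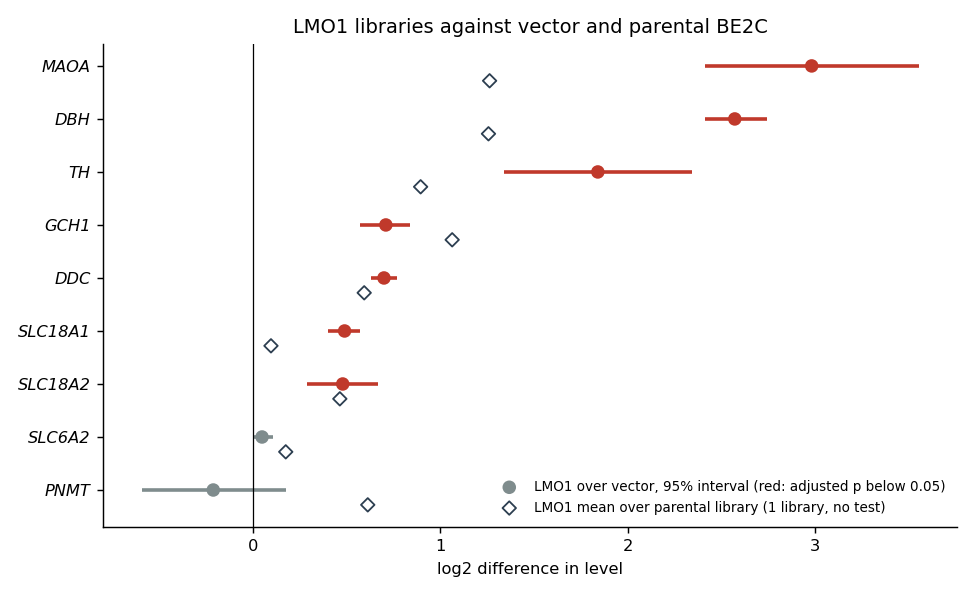
Log2 difference of each gene in LMO1 libraries. Filled points are the edgeR log2 fold change of LMO1 (2 libraries) over vector (2 libraries) with 95% intervals, red where the adjusted p was below 0.05, and open diamonds the log2 ratio of the LMO1 mean to the single parental library. MAOA, DBH and TH stand at 2.98, 2.57 and 1.84 over vector, and lie lower over the parental library.

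The size of the rise over vector depended on which BE2C control was used for several genes, because vector and parental cells differed. DBH averaged 14.2 CPM in vector libraries against 35.4 CPM in the parental library (95% Poisson interval 33.7 to 37.1, counting error only). It was the only one of 7 genes reaching 5 CPM on either side to differ at least 2-fold on the log2(CPM + 1) scale, where its log2 ratio of vector over parental was -1.26. Over all 11727 genes so compared, 8.79% were at least 2-fold lower with vector and 2.58% at least 2-fold higher. MAOA averaged 0.784 CPM with vector and was at 2.60 CPM in parental cells (2.16 to 3.09), and TH averaged 1.61 CPM with vector and was at 3.08 CPM in parental cells (2.60 to 3.62). All 3 genes were thus lowest with vector, intermediate in parental cells and highest with LMO1.

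Against the parental library, the LMO1 mean was 2.40-fold higher for MAOA, 2.39-fold for DBH, 2.09-fold for GCH1, 1.86-fold for TH, 1.51-fold for DDC and 1.38-fold for SLC18A2. The values were 1.53-fold for PNMT, 1.13-fold for SLC6A2 and 1.07-fold for SLC18A1. GCH1 was at 38.8 ± 1.37 CPM (SD, n = 2) with vector, above its parental level of 30.1 CPM (28.5 to 31.7). SLC18A1 was at 177 CPM in parental cells (174 to 181), between the 189 ± 7.55 CPM of LMO1 and the 136 ± 7.66 CPM of vector libraries (SD, n = 2 each). DDC, SLC18A2 and SLC6A2 stood at 212, 19.3 and 535 CPM with vector, and at 226, 19.5 and 490 CPM in parental cells. PNMT averaged 6.13 CPM with vector and was at 3.45 CPM in parental cells (2.95 to 4.02). With 1 parental library no test was made. The labels do not say whether that library was made together with the vector libraries. An effect of the vector cannot be told apart from a difference in how or when the libraries were made.

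Kelly, the line with the most LMO1 RNA, held far more TH, MAOA, DBH and SLC18A2 RNA than BE2C and far less SLC6A2. Of the 8 genes that reached 5 CPM on either side, 5 were at least 2-fold higher in Kelly than in parental BE2C and 1 was at least 2-fold lower, on the log2(CPM + 1) scale. Over all 12387 genes so compared, 15.3% were at least 2-fold higher in Kelly and 13.4% lower. TH and MAOA passed the 5 CPM minimum only through Kelly, where they were high, and PNMT, lower in Kelly, did not pass. The count is therefore partly set by the minimum and is a description only. Without a minimum, 5 of the 9 genes were at least 2-fold higher in Kelly and 2 lower. Each side is 1 library, so there is no replicate check, and the 95% intervals that follow are for counting error alone.

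TH was at 405 CPM (24136 counts) in Kelly, against 3.08 CPM (147 counts) in parental cells, a ratio of 132 (112 to 156), and ranked 11 of the 12387 genes by log2 ratio. MAOA was at 280 CPM in Kelly, against 2.60 CPM in parental cells, a ratio of 108 (90.5 to 130). TH and MAOA, the lowest of the 9 per kilobase in BE2C, thus had the highest ratios in Kelly. DBH had 873 CPM (866 to 881) in Kelly, against 35.4 CPM in parental cells, a ratio of 24.7 (23.5 to 25.9). SLC18A2 had 187 CPM (183 to 190) in Kelly, against 19.5 CPM in parental cells, a ratio of 9.58 (8.96 to 10.3), while PDZD8, on the other strand, had 55.2 and 82.4 CPM in these libraries. DDC was at 478 CPM in Kelly, against 226 CPM in parental cells, a ratio of 2.12 (2.07 to 2.16).

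SLC6A2 went the other way, with 56.3 CPM (54.5 to 58.3) in Kelly, against 490 CPM (484 to 496) in parental cells, 8.70-fold lower in Kelly (8.39 to 9.02). PNMT was at 0.822 CPM (49 counts) in Kelly, against 3.45 CPM (165 counts) in parental cells, under the 5 CPM minimum on both sides. GCH1 had 37.5 CPM in Kelly, against 30.1 CPM in parental cells, a ratio of 1.25 (1.17 to 1.33). SLC18A1 had 148 CPM in Kelly, against 177 CPM in parental cells, a ratio of 0.835 (0.811 to 0.861).

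Set against all 5 BE2C libraries, Kelly lay above the highest for TH (65.3 times the highest BE2C value), MAOA (42.7), DBH (9.72), SLC18A2 (6.76) and DDC (1.37). It lay below the lowest for SLC6A2 and PNMT, where the lowest BE2C value was 8.70 and 4.20 times that of Kelly. For GCH1 and SLC18A1 it fell within the range of BE2C. DDC in LMO1 cells reached 348 CPM, closer to the 478 CPM of Kelly than TH, DBH or MAOA came: Kelly held 1.40 times the LMO1 mean of DDC, against 10.4 times for DBH, 44.9 times for MAOA and 70.8 times for TH.

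**Figure D3:**
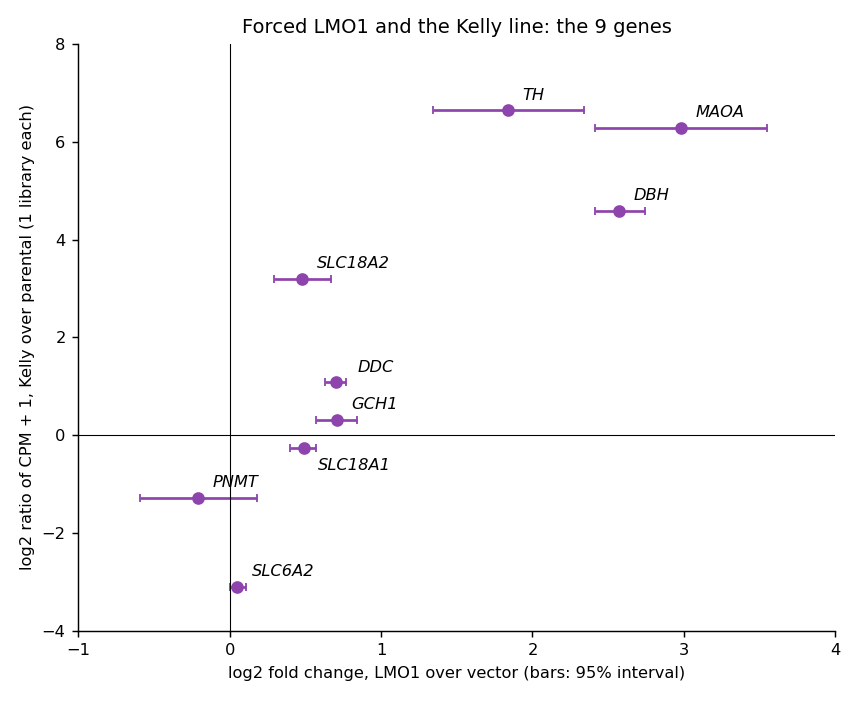
Log2 fold change of each gene in LMO1 over vector libraries (horizontal axis, bars are 95% intervals) and log2 ratio of CPM + 1 in Kelly over parental BE2C (vertical axis, 1 library each). TH, MAOA and DBH are high on both axes, SLC18A2 stands at 0.48 and 3.20, and SLC6A2 at 0.05 and -3.10.

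The order of the 9 genes within a library also differed between the lines. Per kilobase of exon (GENCODE gene models, CPM per kilobase), BE2C with LMO1 had DDC (107 and 111) and SLC6A2 (102 and 100) on top, then SLC18A1 (49.8 and 47.0), DBH (23.8 and 20.9) and GCH1 (21.3 and 21.4), with SLC18A2 (6.67 and 6.28), PNMT (3.88 and 3.38), TH (1.61 and 1.91) and MAOA (1.07 and 1.19) lowest. DDC and SLC6A2 were close to each other, and DBH and GCH1 changed places between the 2 libraries. In vector libraries SLC6A2 (98.6 and 97.2) led DDC, and DBH (3.54 and 3.97) stood beside PNMT (4.72 and 3.70) and SLC18A2 (4.78 and 4.54), and DBH and PNMT changed places between the 2 libraries.

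Kelly had DBH (231), DDC (152) and TH (125) highest, then MAOA (50.7), SLC18A2 (45.1) and SLC18A1 (37.9), and GCH1 (12.7), SLC6A2 (10.3) and PNMT (0.565) lowest, all as CPM per kilobase. Parental BE2C had SLC6A2 (89.7), DDC (71.9) and SLC18A1 (45.3) highest, then GCH1 (10.2), DBH (9.36), SLC18A2 (4.71) and PNMT (2.37), with TH (0.949) and MAOA (0.47) lowest. With the longest transcript as the length, DDC stood at 234 and DBH at 231 CPM per kilobase in Kelly, so the lead of DBH over DDC rests on the gene model. The vesicle transporters show the difference between the lines. Reads of SLC18A2 per read of SLC18A1 were 1.26 in Kelly and 0.11 in parental BE2C, and they stayed between 0.14 and 0.145 in the 4 LMO1 and vector libraries, where these genes rose together.

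Other genes of catecholamine metabolism were read by role, with means ± SD over the 2 libraries of a group. Their counts stand beside the 15.9% of all genes tested that were higher and the 15.1% that were lower. Of the 7 other genes of tetrahydrobiopterin supply, all tested, 1 rose with LMO1 and none fell, with a median log2 fold change of 0.07. The gene that rose was GCHFR, the feedback regulator of GCH1, with 6.04 ± 0.639 CPM in LMO1 libraries and 4.19 ± 0.626 CPM in vector libraries (SD, n = 2 each, log2 fold change 0.54, edgeR adjusted p = 0.0381). In Kelly, PCBD2 was at 11.6 CPM against 29.6 CPM in parental cells.

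Of 9 genes that supply other cofactors, 3 rose and 1 fell, with a median of 0.05. CYB561, which carries electrons across the vesicle membrane to keep DBH supplied with ascorbate, rose to 328 ± 4.05 CPM with LMO1 against 254 ± 14.0 CPM with vector (edgeR adjusted p = 1.18e-12). The copper importer SLC31A1 and the copper pump ATP7A rose by 0.40 (SE 0.0408, edgeR adjusted p = 4.25e-11) and 0.40 (SE 0.0677, edgeR adjusted p = 6.86e-06) on the log2 scale, and DBH is a copper enzyme. Against the parental library, the LMO1 mean was lower for SLC31A1 (171 against 238 CPM) and higher for CYB561 (328 against 235 CPM). For ATP7A the values were 57.5 and 55.9 CPM. In Kelly, SLC31A1 was at 44.5 CPM against 238 CPM in parental cells, ATP7A at 56.4 against 55.9 CPM, CYB561 at 244 against 235 CPM and MAT2A, which makes the methyl donor of PNMT, at 342 against 625 CPM.

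Among 6 other breakdown enzymes, 4 were tested, of which 1 rose and 1 fell, with a median log2 fold change of -0.07. AKR1A1, an aldehyde reductase, was at 79.1 ± 2.49 CPM with LMO1, against 89.0 ± 1.85 CPM with vector (-0.16, edgeR adjusted p = 0.0141). AKR1A1 was at 93.2 CPM in Kelly, against 50.4 CPM in parental cells, a level also below the LMO1 mean. MAOB, the paralogue of MAOA, had 29 counts in Kelly and 0 in each of the 5 BE2C libraries. A limit of 3 counts, not the 95% interval used elsewhere, was taken for a count of 0. It equals 0.0628 CPM in the deepest BE2C library and 0.157 CPM in the shallowest, for counting error only.

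Of 9 other transporters, 5 were tested, 2 rose and none fell, with a median of 0.09. SLC29A4, a low-affinity monoamine transporter of the plasma membrane, rose to 30.8 ± 0.722 CPM with LMO1 against 18.6 ± 0.733 CPM with vector (log2 fold change 0.73, SE 0.0927, edgeR adjusted p = 1.14e-08), and was at 56.3 CPM in Kelly, against 21.8 CPM in parental cells. SLC7A5, which imports tyrosine and other large amino acids, rose by 0.09 on the log2 scale (edgeR adjusted p = 0.0214), and its partner SLC3A2 was at 366 CPM in Kelly, against 291 CPM in parental cells. Against the parental library, the LMO1 mean was lower for SLC7A5 (464 against 852 CPM) and higher for SLC29A4 (30.8 against 21.8 CPM). SLC6A3, the dopamine transporter, was too low to test, with 4.15 CPM in Kelly, against 0.0419 CPM in parental cells; it was named after its values were seen.

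Of 17 subunits and partners of the proton pump that drives vesicle loading, 3 rose, 8 fell and 6 were not called, with a median log2 fold change of -0.11. ATP6V0D1 fell to 53.8 ± 7.48 CPM with LMO1 against 73.2 ± 0.0101 CPM with vector (edgeR adjusted p = 8.02e-07). ATP6V0A2 and ATP6V1H each fell by 0.30 on the log2 scale (edgeR adjusted p = 2.31e-05 and 0.000193). Against the parental library, the LMO1 mean was not lower for ATP6V0D1 (53.8 against 44.7 CPM) or ATP6V1H (53.0 against 51.7 CPM). For ATP6V0A2 the values were 68.6 and 72.0 CPM. In Kelly, 4 of the 17 were at least 2-fold lower than in parental cells and none higher, against 13.4% and 15.3% of all genes so compared, with ATP6V0D1 at 15.6 CPM in Kelly, against 44.7 CPM in parental cells and ATP6V1G1 at 45.9 and 121 CPM.

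Of 14 catecholamine receptors, 8 were tested, 2 rose and 2 fell, with a median of 0.10. DRD2, a dopamine receptor named after its values were seen, rose to 18.2 ± 0.341 CPM with LMO1 against 14.7 ± 0.928 CPM with vector (log2 fold change 0.32, edgeR adjusted p = 0.0264). ADRA1B, an alpha receptor, was at 2.22 ± 0.404 CPM with LMO1, against 4.02 ± 0.338 CPM with vector (log2 fold change -0.84, edgeR adjusted p = 0.0102). ADRA2B was at 0.524 and 1.58 CPM with LMO1, against 0.183 and 0.362 CPM with vector (1.94, edgeR adjusted p = 0.00849), with a spread between LMO1 libraries larger than the vector level. The parental library had 0.921 CPM of ADRA2B, between the 2 LMO1 values, 8.69 CPM of ADRA1B and 17.1 CPM of DRD2. ADRA2A was at 1.56 CPM in Kelly, against 8.58 CPM in parental cells.

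Of 19 transcription factors known to act on genes of this pathway, 18 were tested, 5 rose and 5 fell, with a median of 0.07. FOS, an AP-1 factor, rose to 38.5 ± 0.321 CPM with LMO1 against 8.73 ± 0.23 CPM with vector (log2 fold change 2.15, edgeR adjusted p = 1.76e-22). TFAP2B rose by 0.48 on the log2 scale (SE 0.0574, edgeR adjusted p = 3.51e-09). Against the parental library, the LMO1 mean was lower for TFAP2B (80.7 against 163 CPM) and higher for FOS (38.5 against 4.65 CPM). In Kelly, EPAS1 (HIF-2 alpha) was at 477 CPM against 38.6 CPM in parental cells. PHOX2A, a homeodomain factor that acts on the TH and DBH promoters, was at 133 ± 7.02 CPM with LMO1, against 138 ± 1.11 CPM with vector (edgeR adjusted p = 0.425). It was named after its values were seen, and whether any factor bears on the 9 genes was not tested.

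**Figure D4:**
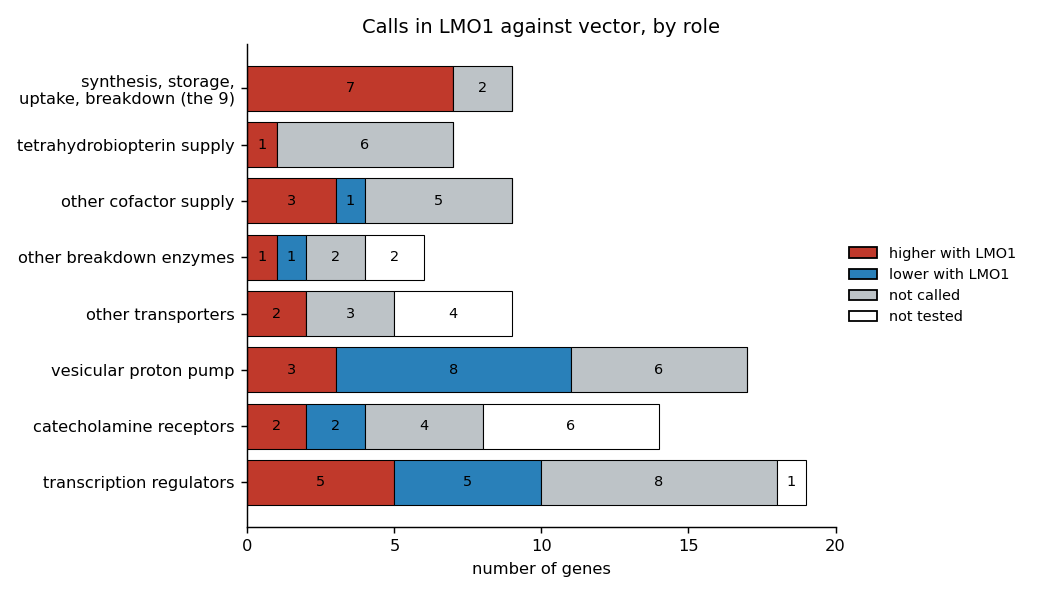
Number of genes in each role that were higher with LMO1, lower with LMO1, not called or not tested (edgeR, adjusted p below 0.05). The 9 genes of synthesis, storage, uptake and breakdown show 7 higher and none lower, and the proton pump 3 higher and 8 lower.

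Genes whose pattern over the 6 libraries was most like that of TH or DBH were found by the root mean square difference of log2(CPM + 1) profiles centred on each gene's mean, over 11691 other genes that averaged 5 CPM or more. The nearest to TH were PRAME (0.29), BMP7 (0.29), MAOA (0.31), CNTNAP2 (0.37) and GRIA2 (0.43). The nearest to DBH were LMO1 (0.31), the gene that was forced, SOX11 (0.33), TBC1D30 (0.36), ITGA5 (0.38) and FGF13 (0.45). SOX11, for one, was at 12.7 and 10.4 CPM with LMO1, 1.51 and 1.05 CPM with vector, 137 CPM in Kelly, against 2.11 CPM in parental cells. Of these 10 genes, 7 averaged under 5 CPM over the 5 BE2C libraries and so passed that minimum through Kelly, where TH and DBH are also high. The single Kelly library sets most of each profile, so the likeness is in large part fixed by the selection and is a description only. Among the 9 genes, TH and MAOA were the nearest pair (0.31), and TH and SLC6A2 the farthest (3.70).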

How the data were processed

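The authors deposited raw read counts by gene symbol, 1 column per library. The labels name a stranded total RNA kit with paired-end reads, and the submitters' processing notes name TopHat2 2.0.6, HTSeq and hg19. The annotation, strand setting and filters are not given in the sources used here. LMO1 and vector libraries were compared on the deposited counts with edgeR 4.0.16 (R 4.3.3, TMM, filterByExpr, quasi-likelihood F test, Benjamini-Hochberg over 15480 genes), and SE is the log2 fold change over the root of F. limma 3.58.1 and DESeq2 1.42.0 were alternatives. Single libraries were compared without a test, as log2 ratios of CPM + 1. Poisson intervals cover counting error only and not the spread between libraries, and reads carried no molecular identifiers. Chi-square per degree of freedom between replicates was 2.89 (LMO1) and 2.33 (vector), above sampling noise. Each library was counted as 1 sample, which these values do not establish, since the spread may be technical. Exon lengths and overlaps came from GENCODE 29 (GRCh38), since no hg19 annotation was used. All 9 genes are named in each comparison, and of each role list up to 3 called genes with the lowest adjusted p and up to 2 with the largest Kelly ratio; some genes of these lists are counted but not reported by name here. The genes and lists were chosen with earlier results of these data known.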

Additional observations from a re-analysis of the deposited data

How the results depend on the processing

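The 7 genes called in LMO1 against vector stayed called and higher under each of the 12 alternatives (RLE or total-count scaling, 2 other filters, DESeq2, limma-voom, all 6 libraries, a replicate block, and each library left out). With 1 library left out, its group has a single library, which is assumed to vary like the other group. Their log2 fold changes ranged from 1.71 to 1.95 for TH, 2.48 to 2.67 for DBH, 2.75 to 3.28 for MAOA, 0.67 to 0.72 for DDC, 0.67 to 0.74 for GCH1, 0.43 to 0.54 for SLC18A1 and 0.43 to 0.52 for SLC18A2. PNMT was never called (-0.38 to -0.03), and SLC6A2 was called under 2. With DESeq2, 2970 genes were called in all, against 4797 with edgeR. With the replicate number as a block, 4847 genes and 7 of the 9 were called, and no call among the 9 changed. Deviations of same-numbered libraries from their group means had a correlation of -0.021 over genes. The labels do not say whether same-numbered libraries were made together, and this was not tested. Without a minimum CPM, 2 of the 9 genes in place of 1 were at least 2-fold lower with vector than in parental cells, the added one being MAOA at -1.01, and 7 in place of 6 differed at least 2-fold between Kelly and parental cells, the added one being PNMT at -1.29. With 0.25 CPM added in place of 1, the log2 ratio of Kelly over parental was 6.93 in place of 6.64 for TH, 6.62 in place of 6.29 for MAOA and -1.79 in place of -1.29 for PNMT. TH and MAOA rest on 14 to 149 counts in each BE2C library, which limits those values.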

Other observations

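Reads within the 9 genes were divided differently in each group. SLC6A2 took 43.3% and 43.3% of them in LMO1 libraries and 55.5% and 55.6% in vector libraries. Its level was not lower with LMO1 (mean 552 against 535 CPM), so the smaller share reflects higher levels of other genes among the 9. SLC6A2 took 2.28% in Kelly and 49.6% in parental BE2C. DBH took 7.00% and 6.23% with LMO1 and 1.38% and 1.57% with vector, and 35.4% in Kelly against 3.58% in parental cells. TH and MAOA took 16.4% and 11.4% in Kelly, and under 1% each in every BE2C library. Ratios of 2 genes in the same library do not depend on the scaling between libraries. Reads of PNMT per read of DBH were 0.063 and 0.0625 with LMO1 and 0.514 and 0.36 with vector. Reads of DBH per read of DDC were 0.268 and 0.226 with LMO1 and 0.0639 and 0.07 with vector, and 1.83 in Kelly against 0.157 in parental cells.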
